A study of Mus musculus with 16 samples.

Results

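The receptors described here are those that open or signal when acetylcholine, GABA, glycine, glutamate or serotonin binds. All probes whose platform symbol began with the letters of a nicotinic, muscarinic, GABA-A, GABA-B, AMPA, kainate, delta, NMDA or metabotropic glutamate, glycine or serotonin receptor gene were taken, which gave 108 probes for 76 gene symbols, out of 25697 probes on the array. One of the 76, Grid2ip, encodes a protein that binds a glutamate receptor and is no receptor itself. It was kept in the counts because its symbol begins with the same letters. All 76 symbols matched the RefSeq gene table by Entrez identifier.

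The samples were REST -/- (knockout) and REST +/+ (control) mouse embryonic stem cells, as total RNA on 16 Illumina bead arrays. Each genotype was sampled undifferentiated at day 0, in medium with leukemia inhibitory factor and without feeder cells, and at days 3, 6 and 9 of differentiation as embryoid bodies, cell aggregates that form early germ layers once that factor is withdrawn. Each of the 8 groups had 2 arrays. The labels give no further allele, no way of deletion and no number of clones, so the effect of losing Rest and any other difference between the cell lines cannot be told apart. The arrays of a group are numbered but not said to be separate cultures, and the spread that the p-values rest on may thus be technical.

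Ionotropic receptors are ion channels made of several subunits, so that a cell needs the right set of subunit genes to make one, whereas the muscarinic, GABA-B, metabotropic glutamate and most serotonin receptors act through G proteins. They are best known from neurons and, for some nicotinic subunits, from the muscle endplate. REST is a repressor that keeps many neuronal genes off outside the nervous system, by binding a DNA element with a left and a right core and recruiting chromatin-modifying cofactors. The question put to the data was which of these receptor genes were detected at all, and in which genotype and on which day.

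A deposited detection p-value under 0.01, a rank against negative control probes, was taken as detected, and a group counted as detected when both of its arrays were. From 7688 to 9045 probes were detected per knockout array and from 6300 to 8930 per control array, and the correlation between the arrays of a group lay between 0.98 and 0.991. The 9 stem cell markers searched were all detected in at least 1 group. The 1 probe for Rest itself was detected on none of the 16 arrays, with intensities of 1.26 to 32.0 in knockout and 4.00 to 44.0 in control arrays, so it could not check the genotype labels. Intensities are those deposited, with the background subtracted and no normalization between arrays, so that a value near or below 0 lies at background.

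Few of the receptor probes were detected. On both arrays of at least 1 group 8 of 108 probes passed, for 6 genes, namely Chrnb2 and Gria1 with 2 probes each and Glrb, Grik4, Grik5 and Htr2b with 1 each. A further 7 probes were detected on single arrays but in no group, and 93 probes on no array, which left 64 of 76 genes without detection on any array. Over all 25697 probes, 10241 or 39.9% were detected in at least 1 group.

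By genotype, 3 of the 8 probes were detected in knockout groups only, both for Chrnb2 and that for Grik4, and 5 in groups of both genotypes. None was detected in a control group only. This split depended on the threshold, and the same split over all probes is not given here. At a detection p under 0.05, 6 probes were detected in knockout groups only, 2 in control groups only (Gabrb2 ILMN_1247588 and Gria3 ILMN_1223636) and 17 in both genotypes, Grik4 among them. At day 0 and a threshold of 0.01, 1 receptor probe was detected in the knockout and 0 in the control. At day 3 it was 1 in each, at day 6 it was 4 in the knockout and 2 in the control, and at day 9 it was 8 in the knockout and 5 in the control. As shares of the 108, these were 7.41% in the knockout and 4.63% in the control at day 9, against 32.3% and 32.6% of all probes in the same groups. On the earlier days the share of all probes detected was 28.7%, 30% and 30.7% in the knockout and 24.3%, 28.7% and 32.1% in the control at days 0, 3 and 6.

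**Figure D1:**
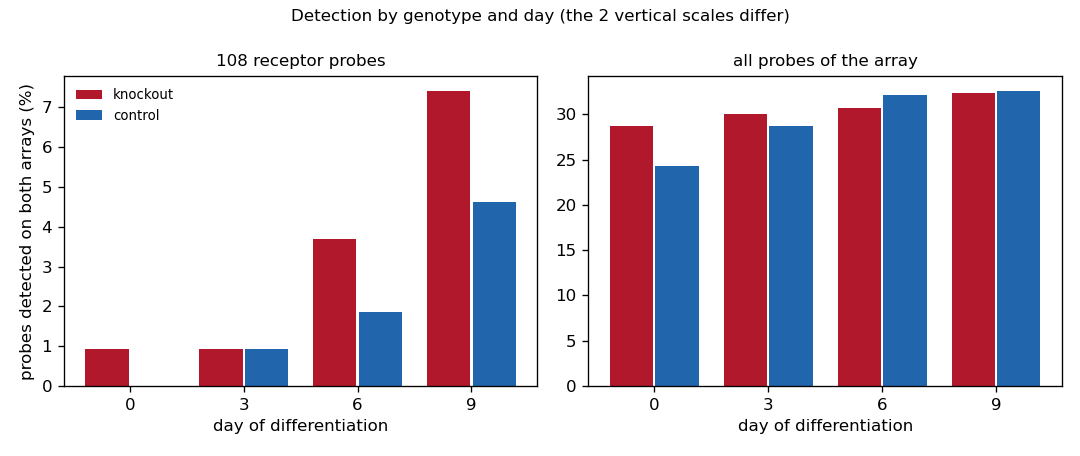
Share of probes detected on both arrays (vertical axis, percent) by day of differentiation, with knockout bars left of control bars, for the 108 receptor probes on the left and all probes of the array on the right, on different vertical scales. Receptor detection was highest at day 9, at 7.41% in the knockout and 4.63% in the control.

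Among acetylcholine receptors, the nicotinic family had 16 genes and 27 probes. Chrnb2 was detected in groups, Chrna4 on single arrays, and the other 14 nowhere, including the muscle endplate subunits Chrna1, Chrnb1, Chrnd, Chrne and Chrng and the homomer-forming Chrna7. Of 12 skeletal muscle markers on the array, 3 were detected in a group, and the regulators Myod1, Myf5, Myf6 and Myog were not. Of 5 muscarinic genes, Chrm3 was seen on single arrays and the others on none.

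All 16 GABA-A receptor genes, with 20 probes, were undetected on every array, as was Gabbr1, the 1 GABA-B gene of the set, and the 5 NMDA receptor genes Grin2a, Grin2b, Grin2c, Grin2d and Grin3b. Of 5 glycine receptor genes Glrb was detected and the ligand-binding subunits Glra1, Glra2, Glra3 and Glra4 were not. Of 4 AMPA receptor genes Gria1 was detected, Gria2 and Gria3 on single arrays, and Gria4 nowhere. The high-affinity kainate subunits Grik4 and Grik5 were detected, but Grik1 and Grik2, of the low-affinity class with which they assemble, were not. Of 5 metabotropic glutamate genes only Grm6 was seen, on 1 array, and of 14 serotonin receptor genes Htr2b was detected, Htr5a was seen on 1 array and 12 on none.

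The 93 probes detected nowhere had median intensities between -5.40 and -1.19 in the 8 groups, where the median of all probes was between 22.5 and 30.6. Their highest single value was 85.4, in a knockout array at day 6. Of the 1600 pairs of an array with a receptor probe detected in no group, 9 passed, or 0.562%, where a threshold of 0.01 lets through 1% of background probes. Those probes were the ones left after every probe detected in a group was set aside, so a low share was partly fixed in advance. The share cannot show whether these 9 detections lie at background. Single-array detections are given as values only. An undetected probe may also be a probe that binds poorly, so that it bounds the signal of that probe and not of the gene.

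Chrnb2 encodes a nicotinic subunit that pairs with the product of Chrna4 in the main high-affinity nicotine receptor of the brain. It was the receptor gene with the clearest difference between genotypes. Probe ILMN_2865297 had intensities of 131 and 88.6 in the knockout at day 0, 144 and 97.0 at day 3, 207 and 247 at day 6, and 365 and 327 at day 9. In the control the 8 arrays lay between -16.9 and 12.8. Every knockout array was above every control array at all 4 days, and no control array was detected.

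A second Chrnb2 probe, ILMN_2612392, had 68.0 and 66.9 in the knockout at day 0, 108 and 145 at day 3, 146 and 134 at day 6, and 216 and 173 at day 9, against -14.7 to 18.6 in the control. The groups again did not overlap on any day. The third Chrnb2 probe, ILMN_2759307, was detected on no array, with -14.6 to 36.5 in the knockout and -0.96 to 23.9 in the control. The probes of this gene therefore disagree, and where each binds in the transcript is not analysed here.

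Differences between groups were tested with limma on normalized log2 values over the 10241 detected probes, with p-values adjusted by the Benjamini-Hochberg method and called under 0.05. A fold against a group that is not above background is given as a lower bound, "at least N-fold", the knockout mean over the lowest signal detected on each control array. Both Chrnb2 probes passed the detection filter through knockout groups alone, so their tests are not independent of that choice. With all 25697 probes tested, without that filter, both were called higher at days 0, 3, 6 and 9. The largest adjusted p of these by limma was 0.00181, for ILMN_2865297 at day 0. In the knockout ILMN_2865297 was higher by at least 1.16-fold at day 3 (limma, adjusted p = 5.32e-04), by at least 2.26-fold at day 6 (limma, adjusted p = 2.82e-06) and by at least 3.50-fold at day 9 (limma, adjusted p = 1.41e-07). For ILMN_2612392 the bounds on the same days were at least 1.22-fold, at least 1.47-fold and at least 1.99-fold, with adjusted p of 9.32e-06, 2.24e-06 and 3.32e-07 by limma. At day 3 ILMN_2865297 was detected on 1 of 2 knockout arrays. Each bound holds only for the part of the difference above the detection limit.

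At day 0 both Chrnb2 probes were called higher as well, at fitted log2 differences of 1.43 ± 0.20 for ILMN_2865297 (limma, adjusted p = 0.00108) and 1.03 ± 0.14 for ILMN_2612392 (limma, adjusted p = 9.54e-04), both with the standard error. Here no lower bound above 1 could be given. ILMN_2612392 was below detection in both genotypes and ILMN_2865297 was detected on 1 of 2 knockout arrays. Averaged over the 4 days the fitted differences were 2.03 ± 0.10 and 1.55 ± 0.07. Without background correction the call of ILMN_2612392 was lost at day 0, day 3 and day 9, with adjusted p of 0.0510, 0.0768 and 0.0786, whereas the calls of ILMN_2865297 held under all 24 alternatives on each day.

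Of the 8 receptor probes tested, these 2 were the ones called higher in the knockout at days 0, 3 and 6 and over the average of the 4 days, and 3 were called at day 9 with Grik4. None was called lower. Over all detected probes, 1.14% were called higher at day 0, then 3.33%, 1.18% and 2.28% at the later days, and 4.56% over the average. With 8 probes tested, of which 2 report 1 gene, these counts describe Chrnb2 more than a family. The Chrnb2 and Grik4 probes entered the 8 through knockout groups alone, so nothing is read from these counts beside those shares. Over all 108 receptor probes, detected or not, the median log2 difference at day 9 was 0.00, with 53 of 108 above 0, beside 0.00 for all probes of the array.

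**Figure D2:**
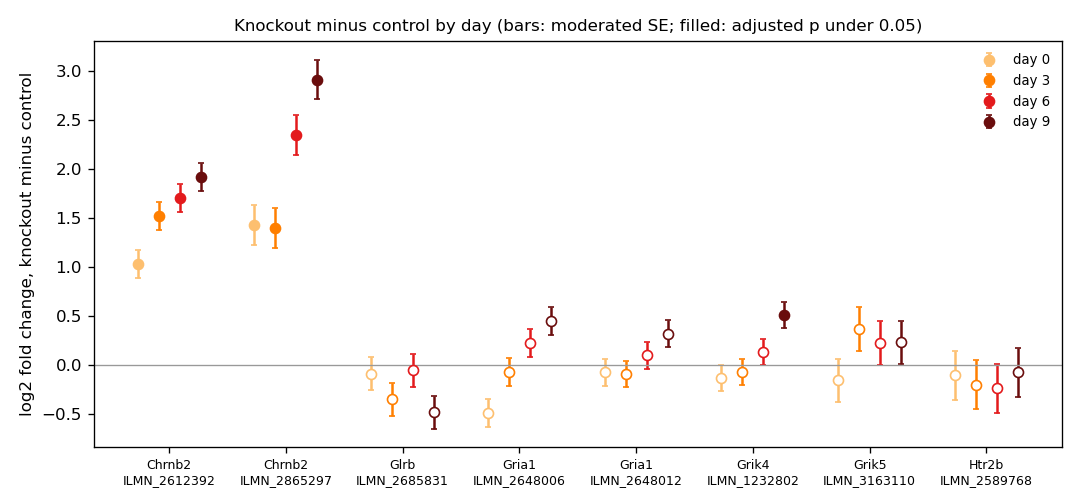
Fitted log2 difference, knockout minus control (vertical axis), for the 8 receptor probes detected in at least 1 group, by day from light to dark, with bars for the moderated standard error and filled points for adjusted p under 0.05. Both Chrnb2 probes were above 1 on every day, and among the other probes the filled point is that of Grik4 at day 9, at 0.51.

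Within the knockout, both Chrnb2 probes were called higher at day 9 than at day 0. From day 0 to day 9 ILMN_2865297 changed by 1.37 ± 0.20 on the log2 scale (limma, adjusted p = 2.68e-05) and ILMN_2612392 by 1.09 ± 0.14 (limma, adjusted p = 9.06e-06). Without background correction neither call held, with adjusted p of 0.263 and 0.401. At day 3 ILMN_2865297 differed from day 0 by 0.07 ± 0.20 (limma, adjusted p = 0.822). In the control the same probes changed by -0.11 ± 0.20 and 0.20 ± 0.14, with adjusted p of 0.649 and 0.235 by limma, both at background. The difference between the genotypes in this change was 1.48 ± 0.29 (limma, adjusted p = 0.0123) and 0.89 ± 0.20 (limma, adjusted p = 0.0387). The control values behind these differences were at background.

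Those differences in change depended on single arrays. ILMN_2865297 lost the call without control day 9 replicate 2, knockout day 0 replicate 2 or knockout day 9 replicate 2, with adjusted p of 0.0551, 0.0758 and 0.0631 by limma. ILMN_2612392 lost it without any of 11 of the 16 arrays, with values between 0.74 and 0.93. Both lost it without background correction and with the authors' processed table, and ILMN_2612392 also with a looser detection filter. For ILMN_2612392 the value was -0.77 without background correction (limma, adjusted p = 0.938), and its call held in 9 of 23 alternatives.

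The promoter windows of Chrnb2 and Gria2 run from 250 bases before to 50 after the annotated start. They are printed because Chrnb2 carries the largest difference and the Gria2 window held an exact match to the REST element searched. Sequences are from RefSeq, build GRCm38.p6, both on the minus strand, at chr3:89764583-89764882 for Chrnb2 and chr3:80802786-80803085 for Gria2. The element was searched on both strands as AGCACCNNGGACAG, its left core AGCACC and right core GGACAG set 2 bases apart, and the match is in capitals.
Chrnb2: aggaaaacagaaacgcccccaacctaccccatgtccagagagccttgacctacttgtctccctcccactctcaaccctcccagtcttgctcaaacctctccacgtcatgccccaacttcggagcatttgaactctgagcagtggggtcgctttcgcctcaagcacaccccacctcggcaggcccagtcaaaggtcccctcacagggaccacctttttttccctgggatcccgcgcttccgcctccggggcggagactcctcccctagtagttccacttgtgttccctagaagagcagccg
Gria2: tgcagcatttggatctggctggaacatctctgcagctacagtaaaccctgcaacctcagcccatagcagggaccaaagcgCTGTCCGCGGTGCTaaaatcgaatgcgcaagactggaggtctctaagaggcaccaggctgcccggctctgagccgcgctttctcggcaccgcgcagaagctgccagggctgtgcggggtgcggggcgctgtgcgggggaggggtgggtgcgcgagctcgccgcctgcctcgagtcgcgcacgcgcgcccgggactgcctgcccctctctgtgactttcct

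In Gria2 the match spans bases 81 to 94 of the window, which ends 157 bases before the annotated start, and reads CTGTCCGCGGTGCT as printed, the other strand being AGCACCGCGGACAG. The Chrnb2 window held no exact match. Elements with other letters in the cores or another spacing were not searched. Windows were found for 60 of the 76 genes, 71 in all, and Gria2 was the 1 with both cores so spaced, as were 17 of all 32851 windows, or 0.0517%. The left core AGCACC alone was in 16.9% of the receptor windows and 16.2% of all windows, and GGACAG in 33.8% and 22.2%. Matches of a single core include those of the whole element. A match is a string of letters here and not a measured binding site, and such elements can also lie outside these windows.

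Gria2 encodes the AMPA subunit that, after RNA editing, makes the channel impermeable to calcium. Its probe ILMN_2680737 was not detected in any group. It had 86.5 and 44.9 in the knockout at day 6 and 85.9 and 97.4 at day 9, against 4.72 and 14.5 in the control at day 6 and -5.30 and 26.2 at day 9. The knockout arrays lay above the control arrays on both days, but 1 array alone passed detection, a knockout array at day 9. At days 0 and 3 the genotypes overlapped or were lower in the knockout, with 2.57 to 27.1 in the knockout and -5.51 to 35.0 in the control.

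Gria2 was outside the fit on detected probes. With all 25697 probes tested it was called at day 9, at 0.93 ± 0.19 (limma, adjusted p = 0.0215), and not at day 6, at 0.65 ± 0.19 (limma, adjusted p = 0.261). In that fit 4 receptor probes were called at day 9, the other three being both Chrnb2 probes and Grik4, where 0.852% of all probes were called higher. The second Gria2 probe, ILMN_3122922, lay between -34.3 and 20.6 on all arrays and differed by 0.07 ± 0.17 at day 9 (limma, adjusted p = 0.959).

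**Figure D3:**
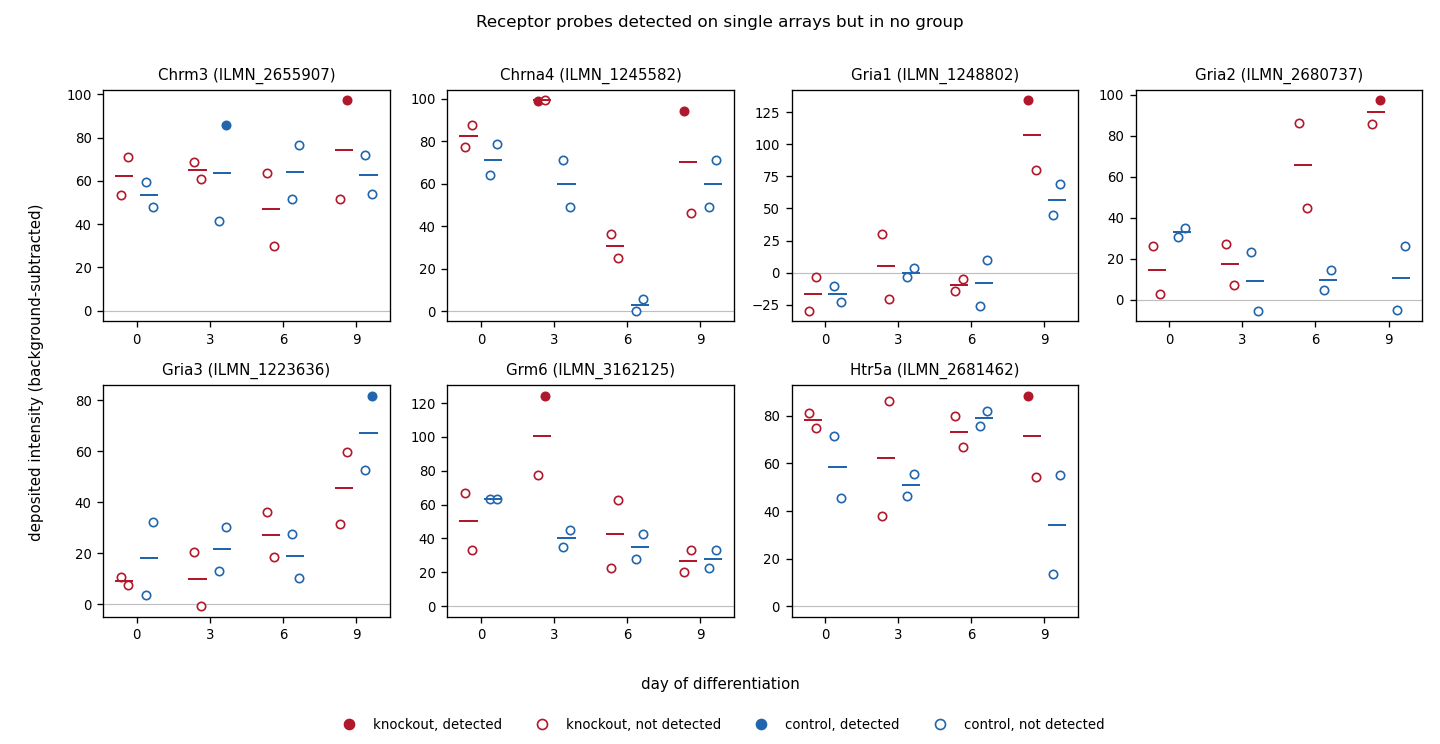
Deposited intensity on each array (vertical axis) by day of differentiation for the 7 receptor probes detected on single arrays but in no group, knockout in red left of control in blue, filled where detected, with bars for group means. In the knockout Gria2 (ILMN_2680737) reached 97.4 at day 9, above both control arrays, while Chrm3, Htr5a and Gria3 overlapped between genotypes on most days.

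Grik4 encodes a high-affinity kainate receptor subunit. At day 9 its probe had 126 and 87.9 in the knockout, both detected, against 65.3 and 53.0 in the control, neither detected. At earlier days the intensities were 6.87 to 41.5 in the knockout and 11.1 to 31.3 in the control. At day 9 the knockout was thus higher by at least 1.16-fold (limma, adjusted p = 0.0455; fitted log2 difference 0.51 ± 0.13).

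The probe entered the fit through the knockout day 9 group alone, the group in which it was high, so the test is not independent of that choice. The call was lost in 17 of 24 alternatives, including without any of 12 of the 16 arrays, where the fitted difference was 0.40 to 0.62 and the adjusted p 0.0608 to 0.281. From day 0 to day 9 Grik4 rose by 1.03 ± 0.13 in the knockout (limma, adjusted p = 7.63e-06) and by 0.39 ± 0.13 in the control (limma, adjusted p = 0.0188), where it stayed below detection. The difference between these changes was 0.64 ± 0.19 (limma, adjusted p = 0.139). The control change lost its call without control day 0 replicate 1 or control day 9 replicate 1, with adjusted p of 0.0771 and 0.133.

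Gria1 encodes an AMPA receptor subunit that carries fast excitation at many brain synapses. Both of its detected probes were at background up to day 6 in either genotype and were detected on all day 9 arrays. ILMN_2648006 had 207 and 183 in the knockout at day 9, against 117 and 145 in the control. ILMN_2648012 had 153 and 138 in the knockout, against 103 and 109 in the control. The knockout arrays were above the control arrays for both probes, but the fitted differences of 0.45 ± 0.14 and 0.32 ± 0.14 were not called (limma, adjusted p = 0.104 and 0.253). The third probe, ILMN_1248802, had 134 and 80.0 in the knockout and 44.7 and 68.8 in the control at day 9, with 1 knockout array detected.

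Gria1 rose with differentiation in both genotypes. From day 0 to day 9 ILMN_2648006 changed by 2.05 ± 0.14 in the knockout and 1.11 ± 0.14 in the control, and ILMN_2648012 by 1.67 ± 0.14 in the knockout and 1.27 ± 0.14 in the control, each called by limma (largest adjusted p = 7.87e-06). Without background correction the control change of ILMN_2648006 was not called (adjusted p = 0.129). As lower bounds the knockout changes were at least 1.56-fold and 1.18-fold, and for the control no bound above 1 could be given. The difference between the changes was called for ILMN_2648006, at 0.94 ± 0.20 (limma, adjusted p = 0.0267), and not for ILMN_2648012, at 0.40 ± 0.19 (limma, adjusted p = 0.468).

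Part of that difference for ILMN_2648006 lay at day 0, where the knockout had -11.4 and -1.51 and the control 24.6 and 38.3, all undetected. In the control this probe was called lower at day 3 and day 6 than at day 0, at -0.39 ± 0.14 and -0.45 ± 0.14 (limma, adjusted p = 0.0349 and 0.0133), with all of these arrays below detection. Of all detected probes 23% were lower in the control at day 3 and 29.7% at day 6. The difference in change lost its call without control day 0 replicate 2, control day 9 replicate 1 or any of the knockout arrays of days 0 and 9, with adjusted p of 0.0661 to 0.137, and also without background correction or with an offset of 50. The day 3 call was lost without control day 0 replicate 2 or control day 3 replicate 2, and the day 6 call without control day 0 replicate 2 or control day 6 replicate 2.

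Grik5, the other high-affinity kainate subunit, was detected at day 9 in both genotypes. Its probe had 198 and 98.8 in the knockout and 94.3 and 128 in the control at day 9, and 3.46 to 75.5 in the knockout and 7.47 to 47.0 in the control on the earlier days. It rose from day 0 to day 9 by 1.47 ± 0.22 in the knockout (limma, adjusted p = 3.32e-05) and 1.09 ± 0.22 in the control (limma, adjusted p = 5.45e-04). The genotypes overlapped at day 9, with a difference of 0.23 ± 0.22 (limma, adjusted p = 0.687).

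Glrb encodes the glycine receptor subunit that anchors the channel to the scaffold protein gephyrin. Its probe ILMN_2685831 was undetected at days 0 and 3 and detected on every array at days 6 and 9. It had 124 and 125 in the knockout and 123 and 131 in the control at day 6, and 155 and 99.1 in the knockout and 152 and 182 in the control at day 9. The genotypes overlapped at both days on these intensities, and at day 9 the fitted difference of -0.48 ± 0.17 was not called (limma, adjusted p = 0.151). From day 0 to day 9 Glrb rose by 1.23 ± 0.17 in the knockout and 1.63 ± 0.17 in the control (limma, adjusted p = 1.33e-05 and 8.23e-07). A second probe for Glrb, ILMN_1232399, was undetected throughout, at -36.2 to 6.06 in the knockout and -17.1 to 14.0 in the control.

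Htr2b, a serotonin receptor that signals through a G protein and takes part in heart development in mice, was the 1 receptor gene detected in both genotypes on every day, on at least 1 array. Its intensities were 88.0 to 180 in the knockout, detected on 7 of 8 arrays, and 81.9 to 192 in the control, also detected on 7 of 8. It was not called in any comparison, with differences between genotypes of -0.11, -0.20, -0.24 and -0.07, each ± 0.25, at days 0, 3, 6 and 9 (limma, adjusted p between 0.756 and 0.930).

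**Figure D4:**
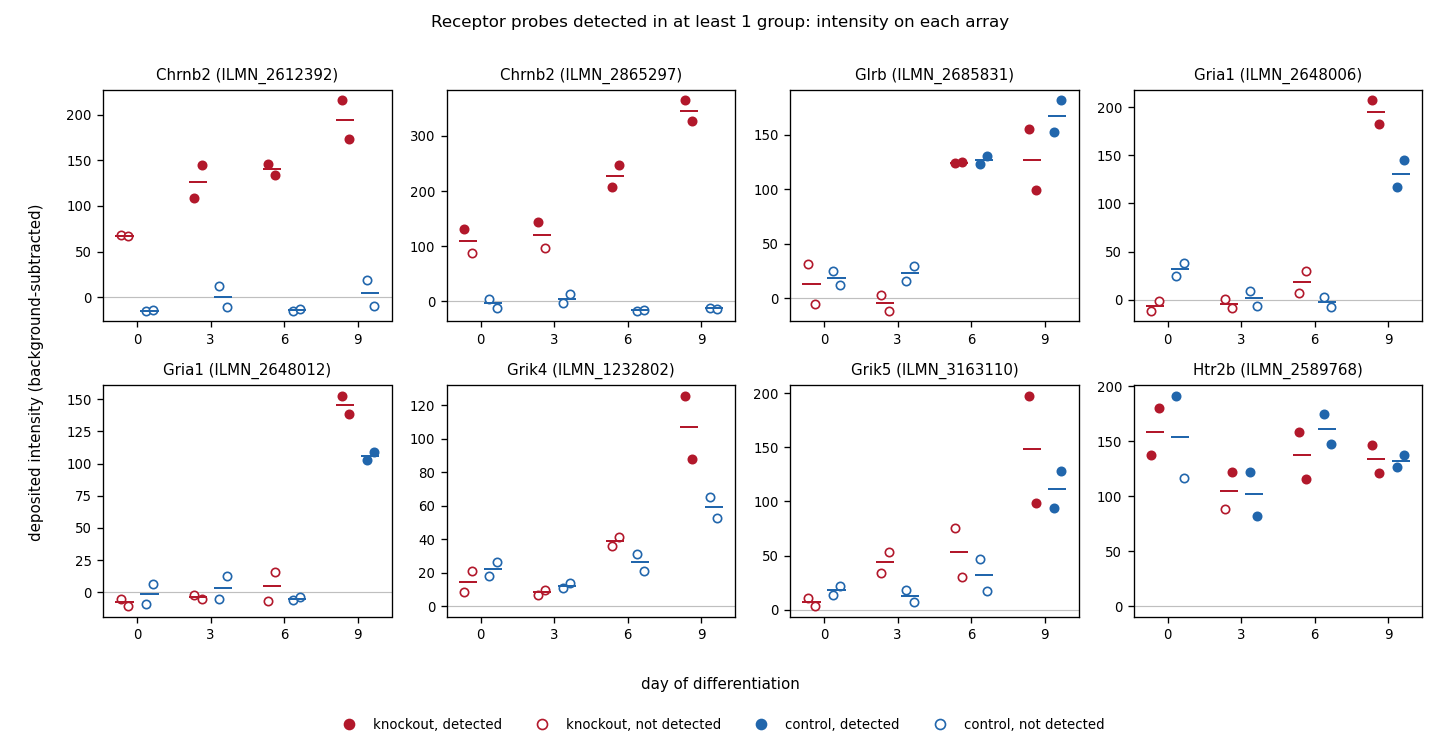
Deposited intensity on each array (vertical axis) by day of differentiation for the 8 receptor probes detected in at least 1 group, knockout in red left of control in blue, filled where detected, with bars for group means and a separate scale per panel. Both Chrnb2 probes were above the control on every day, Gria1, Grik4 and Grik5 were highest at day 9, Glrb was high at days 6 and 9, and Htr2b overlapped between genotypes.

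Over the course, 7 of the 8 tested probes rose from day 0 to day 9 in the knockout and 5 in the control, where both Chrnb2 probes and Htr2b were not called. Of all detected probes 34% rose in the knockout and 33.7% in the control. Of the 8 probes 4 passed the detection filter at day 9 alone, so their rise is not set against that share. The difference between the genotypes in the change to day 9 was called for 3 probes, both for Chrnb2 and 1 for Gria1. Of all detected probes 0.957% were called higher, but the Chrnb2 probes passed the filter in knockout groups alone and the Gria1 probe at day 9 alone, so nothing is read from that share either.

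The other probes detected on single arrays passed the detection threshold on few arrays, but several passed the looser one in groups of both genotypes. At a detection p under 0.05, Chrna4 (ILMN_1245582) and Htr5a were each detected in 3 knockout and 3 control groups. Chrm3 was detected in 3 knockout and 4 control groups, and Grm6 in 1 and 2. Gria3 (ILMN_1223636) was detected in 0 knockout groups and 1 control group. Chrna4, the partner subunit of Chrnb2, was detected on 1 knockout array each at days 3 and 9, with 99.1 and 99.4 in the knockout and 71.2 and 49.2 in the control at day 3, and 94.1 and 46.4 in the knockout and 49.0 and 71.4 in the control at day 9. At day 6 this Chrna4 probe had 36.7 and 25.1 in the knockout and 0.31 and 5.81 in the control, all undetected. In the fit of all probes it differed by 0.04, 0.31, 0.31 and 0.06, each ± 0.17, at days 0, 3, 6 and 9. None of these was called (limma, adjusted p = 0.972, 0.512, 0.776 and 0.969). The other probes for Chrna4 were at -46.8 to 25.6 in the knockout and -34.6 to 10.0 in the control.

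Chrm3, a muscarinic receptor, was detected on 1 array of each genotype, with 29.9 to 97.3 in the knockout and 41.6 to 85.9 in the control. Grm6, the glutamate receptor of retinal bipolar cells, was detected on 1 knockout array of day 3 at 124, with 19.9 to 77.2 on the others and 22.4 to 63.3 in the control. Htr5a, a serotonin receptor, reached 88.6 on 1 knockout array of day 9, with 82.2 the highest control value. Gria3, an AMPA subunit, was the 1 probe detected on a control array alone, at 81.9 at day 9, with 59.9 the highest knockout value. Of the 15 probes detected on any array, 8 were detected on knockout arrays alone, 1 on control arrays alone and 6 on both. The same split over all probes is not given here, and arrays differed in how many probes they detected. No difference between the genotypes is therefore read from these counts.

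Genes that serve these receptors were taken from a list of scaffolds, chaperones and other accessory proteins. Of 45 listed, 35 were on the array and 14 were tested. In the knockout 2, 2, 1 and 3 were higher at days 0, 3, 6 and 9, with none lower, at medians of 0.10, 0.13, 0.14 and 0.16 beside 0.00, 0.00, -0.01 and -0.01 for all detected probes. Of all detected probes 1.14%, 3.33%, 1.18% and 2.28% were called higher on these days. Ric3, a chaperone for the assembly of nicotinic receptors, was called on all 4 days.

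Ric3 had 78.5 and 96.9 in the knockout at day 0, 87.6 and 84.3 at day 3, 115 and 130 at day 6 and 158 and 86.4 at day 9, against 9.00 to 37.1 in the control. Ric3 was detected on 3 knockout arrays and no control array, and the genotypes did not overlap on any day. It entered the fit through the knockout day 6 group alone, so its tests are not independent of that choice. It was at least 1.30-fold higher at day 6 (limma, adjusted p = 7.02e-04) and at least 1.27-fold at day 9 (limma, adjusted p = 0.00148), where 1 of 2 knockout arrays was detected. At days 0 and 3 neither genotype was detected, with fitted differences of 0.79 ± 0.18 and 0.69 ± 0.18 (limma, adjusted p = 0.0398 and 0.0370).

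Gabarapl2, a relative of the protein that links GABA-A receptors to the cytoskeleton and a factor of autophagy, was bright on all arrays. It was higher in the knockout than in the control by 0.66 ± 0.14 at day 0, 0.67 ± 0.14 at day 3 and 0.73 ± 0.14 at day 9 (limma, adjusted p = 0.0284, 0.00980 and 0.00610). At day 6 it was not called, with log2 means of 11.9 in the knockout and 11.3 in the control. Its day 9 intensities were 4948 and 4954 in the knockout, against 2707 and 2653 in the control. Nrxn2, a presynaptic adhesion protein, had 346 and 343 in the knockout at day 9, against 173 and 170 in the control, a difference of 0.87 ± 0.18 (limma, adjusted p = 0.0123). The postsynaptic scaffolds Dlg4 and Shank3, the kainate receptor partner Neto1 and the AMPA receptor partner Cacng2 were among 21 listed genes not detected.

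Of 36 genes for making, loading and taking up transmitters, 33 were on the array and 8 were tested. Of these 0, 1, 1 and 2 were higher in the knockout at days 0, 3, 6 and 9 and none lower, at medians of 0.11, 0.01, 0.12 and 0.07, where 1.14%, 3.33%, 1.18% and 2.28% of all detected probes were called higher. Slc32a1, which loads GABA and glycine into vesicles, had 641 and 687 in the knockout at day 6, against 134 and 193 in the control, a difference of 1.94 ± 0.19 (limma, adjusted p = 1.56e-05). At day 9 it had 162 and 116 in the knockout, against 9.29 and -2.23 in the control, and was at least 1.44-fold higher (limma, adjusted p = 1.92e-04). The GABA-making enzymes Gad1 and Gad2 and the glutamate loaders Slc17a6, Slc17a7 and Slc17a8 were not detected.

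**Figure D5:**
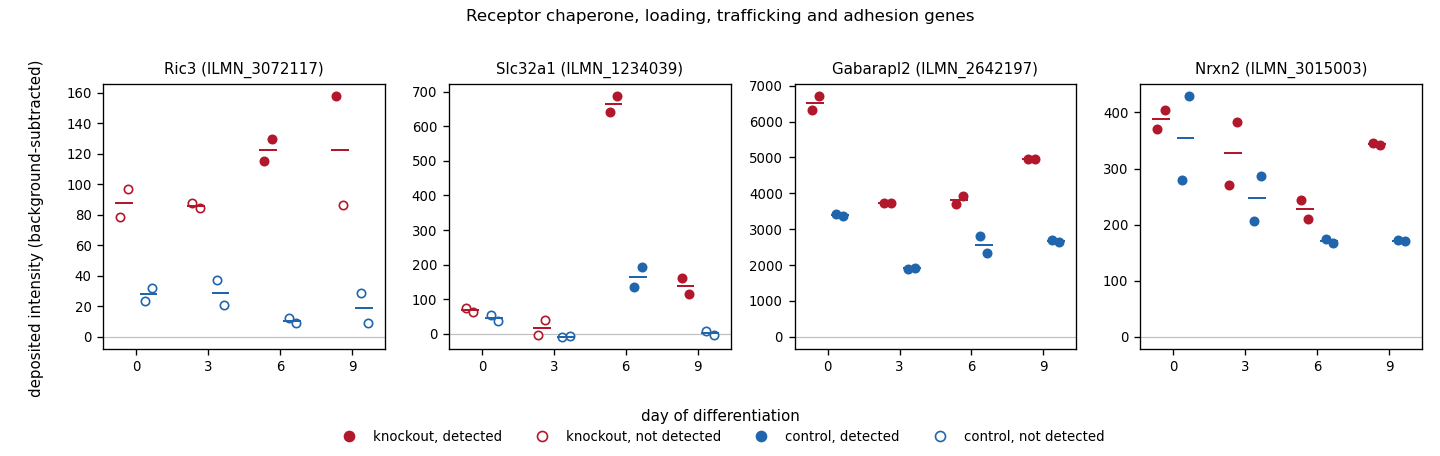
Deposited intensity on each array (vertical axis) by day of differentiation for Ric3, Slc32a1, Gabarapl2 and Nrxn2, knockout in red left of control in blue, filled where detected, with bars for group means and a separate scale per panel. Ric3 was above the control on every day, and Slc32a1 was highest at day 6, at 641 and 687 in the knockout and 134 and 193 in the control.

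Slc1a3, an astrocyte glutamate transporter, was higher in the knockout at day 3, at 1.41 ± 0.33 (limma, adjusted p = 0.0168). Ddc, the decarboxylase of dopamine and serotonin synthesis, was higher at day 9 by at least 1.09-fold (limma, adjusted p = 0.0226). Ddc entered the fit through the knockout day 9 group alone, so this test is not independent of that choice. A list of receptors for other transmitters had 24 genes on the array, among them the dopamine, histamine and P2X receptors, and 0 of them were detected in a group.

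Markers of several cell types differed between the genotypes alongside these results. Of 22 neuron markers on the array, 14 were detected in a group and 6, 8, 8 and 10 of them were higher in the knockout at days 0, 3, 6 and 9, with none lower, where 1.14%, 3.33%, 1.18% and 2.28% of all detected probes were called higher. Their summed intensity was 5813 to 7491 in knockout arrays and 1384 to 3683 in control arrays. Markers of each cell type were tested and summed when detected in any group, also of 1 genotype alone. Of the 14 neuron markers, 10 to 12 were detected per knockout group and 4 to 6 per control group. Their counts and sums are thus not independent of that choice. The neuron markers called at day 9 were Chga, Gap43, Ina, Map2, Nefm, Neurod1, Scg3, Stmn2, Stmn3 and Syp, and some of these are known REST targets. The other 8 neuron markers on the array, Tubb3, Mapt, Dcx, Rbfox3, Snap25, Syt1, Elavl4 and Neurog2, were not detected in any group. Of 8 neural progenitor markers on the array, 5 were tested. In the knockout 1 of them was higher at day 0, none was higher at the later days, and 1 was lower at day 9. Of all detected probes 1.14% were called higher at day 0 and 1.99% lower at day 9. The progenitor sums at day 9 were 466 to 549 in the knockout and 535 to 537 in the control. Of 7 glia markers on the array, 1, Olig2, was detected. Of 9 stem cell markers 3 (Dppa5a, Tdgf1 and Nanog) were higher in the knockout at day 9 and none lower, with sums of 3704 to 5270 in the knockout and 2252 to 3153 in the control.

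Among endoderm and cardiac muscle markers some were lower at day 9. Of 7 endoderm markers tested, 3 (Afp, Alb and Apoa2) were lower in the knockout and none higher, where 1.99% of all detected probes were called lower. Their sums were 23069 to 24501 in the knockout and 37638 to 39559 in the control, and Foxa2 and Amn were not detected. At day 6 the sums ran the other way, at 14960 to 16573 in the knockout and 10867 to 12765 in the control, with 1 marker called lower and none higher. At day 3 they were 296 to 572 in the knockout and 2480 to 2740 in the control, with 2 called lower and none higher. No endoderm marker was called at day 0. Over the average of the 4 days 5 of the 7 were lower and none higher. The share of all probes called lower is given here for day 9 alone. Of 4 cardiac muscle markers tested, 1 (Myl2) was lower at day 9 and none higher. Their day 9 sums were 2579 to 2775 in the knockout and 4063 to 4763 in the control. Of the 10 on the array, Myh7, Myl3, Nppa, Tnni1, Tnni3 and Ryr2 were not detected. The part of any of these markers in the differences of Chrnb2, Ric3 and Slc32a1 was not tested, and in bulk samples more cells of a type and more RNA per cell cannot be told apart.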

How the data were processed

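Total RNA of 16 samples was measured on Illumina bead arrays. Per the file headers, the deposited table gives an intensity per probe and array that is not normalized, and a detection p-value. The background was already subtracted, as judged from the values, and the p-value moved in steps that 798 negative controls would give. The authors also deposited a processed intensity table, quantile normalized as judged from the values, which served as an alternative. The tools used for it were not given in the sources used here. Intensities were normalized with neqc of limma 3.58.1 (R 4.3.3, statmod 1.5.0), with normexp, an offset of 16, quantile normalization and log2, so that fold changes are on a log2(value + 16) scale and understate changes of dim probes. Probes detected at p under 0.01 on both arrays of a group (10241) entered lmFit and eBayes with 8 group means, 8 residual and 6.46 prior degrees of freedom, and Benjamini-Hochberg adjustment within each of 14 comparisons. The fit was tested on simulated data. For 23978 probes the platform annotation gave a symbol and for 1719 none. Alternatives were background correction, normalization, offset, the authors' table, the detection filter, 1 probe per gene, a replicate block and leaving out each array. The setting called without background correction took the deposited intensities, already background-subtracted, and set values under 1 to 1. These were put on the log2 scale with no offset and quantile normalized. Every member was described by detection, those called on every array, and the rest by range. The members and lists were chosen with earlier results of these data known. Same-numbered arrays of the genotypes deviated together at correlations of -0.11, 0.07, -0.18 and 0.07 on the 4 days, so the numbers were not taken as pairs. Array number limits the precision.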

Additional observations from a re-analysis of the deposited data

Results flagged for a closer look

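The change from day 0 to day 9 differed between the genotypes for 3 receptor probes, by the interaction term of the fit. It was larger in the knockout by 1.48 ± 0.29 for Chrnb2 ILMN_2865297 (limma, adjusted p = 0.0123), by 0.89 ± 0.20 for Chrnb2 ILMN_2612392 (limma, adjusted p = 0.0387) and by 0.94 ± 0.20 for Gria1 ILMN_2648006 (limma, adjusted p = 0.0267). The Chrnb2 values set a rise in the knockout against a control at background. With 2 arrays per group, no array could be tested as standing apart from its group.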

How the results depend on the processing

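The 33 single calls of receptor probes were each recomputed under 23 or 24 alternatives, which gave 781 outcomes. Of these, 713 kept the call and its direction, 67 lost the call and 1 reversed. The reversal was Chrnb2 ILMN_2612392, whose difference between the genotypes in the change to day 9 was -0.77 without background correction. That reversed value was not called (limma, adjusted p = 0.938). Counts of called probes moved as follows. With 1 probe per gene it was 1 at day 0, day 3 and day 6 and over the average of the 4 days, where 2 were called with all probes, by construction of that setting. Without background correction it was 1 at day 3 (2 in the main setting) and 1 at day 9 (3 in the main setting), and 0 for the difference in change to day 9, for which the authors' table gave 1 and the main setting 3. From day 0 to day 9 the knockout had 12 calls with no filter and 11 with the looser one (7 in the main setting), and the control 11 and 10 (5 in the main setting), as more probes were tested. At a detection p under 0.05, 25 receptor probes were detected, where 8 were at 0.01. Without background correction, values under 1 were set to 1 and no offset was added. There Chrnb2 ILMN_2612392 differed by 6.12, 5.00 and 5.35 at days 0, 3 and 9, where it lost its calls. The main setting gave 1.03, 1.53 and 1.92. The causes of the losses without background correction and with the authors' table were not tested. Leaving out each array in turn gave 2 to 2 calls at days 0, 3 and 6, 2 to 3 at day 9 and over the average, 7 to 7 for the knockout and 4 to 6 for the control from day 0 to day 9, and 0 to 3 for the difference in change, with 0 without knockout day 0 replicate 2 or knockout day 9 replicate 2. With the replicate block, for numbers that do not pair the arrays, the Grik4 difference at day 9 stayed at 0.51 but lost its call (limma, adjusted p = 0.0642), and no other call of a receptor probe was lost. Median centring shifted the median of all probes by 0.13 at day 0 and 0.16 at day 9, and both Chrnb2 probes stayed above it on all days. The calls of listed genes other than receptors were not rerun under these alternatives. The slide block was not run, since no header names slides. Most receptor probes lay at background, where dim differences cannot be seen.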
